A study of Mus musculus with 2 samples.

Results

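Imprinted genes, which are transcribed mainly from the maternal or the paternal chromosome, were examined in polyadenylated RNA of adult mouse liver. The members were 35 symbols taken from known imprinted domains, matched by stable identifier to the gene and transcript tables. Of these 34 were listed, among 43346 genes in all, and Peg13 was not analysed here. The series holds 2 libraries of 1 group, labelled biological replicates 1 and 2, from liver of 8-week-old C57BL/6J mice, an inbred laboratory strain, with tissue of male and female littermates pooled. The libraries were stranded, sequenced from both ends with 76-nucleotide reads, and made from poly-A RNA above 200 nucleotides after ribosomal RNA depletion. No treatment, other genotype or other age was included, and both libraries carry the same donor identifier. The labels do not say that the libraries stem from separate animals, so p-values cover only the difference between these libraries, and it may be technical. In an inbred strain the parental alleles are identical in sequence, so allelic expression was not measured, and the parent named for a gene below is textbook background.

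Genomic imprinting is set in the germ line by DNA methylation of control regions and is kept in body cells by DNA methyltransferases and by zinc-finger proteins that bind the methylated copy. Many imprinted genes act on fetal and placental growth and are known to be strongly transcribed in fetal liver and turned down after birth. They lie in clusters in which protein-coding genes share a control region with long noncoding RNAs, some of which run antisense to a neighbour and silence it in cis.

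Depth was similar, with 60770411 reads in replicate 1 and 61688916 in replicate 2, counting spike-ins. Values are given as TPM, a transcript abundance scaled for gene length, and as estimated reads, which are not scaled. For a gene of 1000 bases 1 read was worth 0.0205 and 0.0204 TPM. The libraries held the defining transcripts of hepatocytes, with all 8 marker genes expressed and a summed level of 59388 and 60591 TPM.

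The sequences below are RefSeq promoter windows on GRCm38.p6, running from 250 bases before to 50 bases after a start site, 5′ to 3′ on the gene's own strand, with each CG dinucleotide in capitals. Windows were present for 28 of the 34 genes. The 5 printed are those the results turn on. The Peg3 window, at chr7:6730370-6730669 on the minus strand, shares 263 bases with the window of Usp29 on the opposite strand. Peg3 had reads and Usp29 had none, but the Usp29 model counted starts 230577 bases from its window. The reads therefore do not compare transcription from the 2 strands of the shared bases. Zdbf2, at chr1:63273019-63273318, was silent behind a window of 38 CG, and Slc22a18, at chr7:143473539-143473838, was abundant behind a window of 2 CG. The Gnas windows mark an upstream start, chr2:174327499-174327798, and the start of the main Gs-alpha transcripts, chr2:174329756-174330055, whose shares differed between the libraries.
Peg3: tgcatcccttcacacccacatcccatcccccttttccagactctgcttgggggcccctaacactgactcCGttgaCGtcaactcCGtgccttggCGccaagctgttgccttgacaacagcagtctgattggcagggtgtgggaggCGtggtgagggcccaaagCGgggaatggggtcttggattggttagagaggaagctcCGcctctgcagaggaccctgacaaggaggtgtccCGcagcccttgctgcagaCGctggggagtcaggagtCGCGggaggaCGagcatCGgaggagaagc
Zdbf2: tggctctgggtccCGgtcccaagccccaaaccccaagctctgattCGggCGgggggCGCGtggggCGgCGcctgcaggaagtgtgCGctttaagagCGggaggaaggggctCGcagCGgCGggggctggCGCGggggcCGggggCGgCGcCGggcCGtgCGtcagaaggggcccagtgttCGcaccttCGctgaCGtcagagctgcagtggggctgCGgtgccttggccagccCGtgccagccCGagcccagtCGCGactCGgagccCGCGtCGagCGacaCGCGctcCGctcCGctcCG
Slc22a18: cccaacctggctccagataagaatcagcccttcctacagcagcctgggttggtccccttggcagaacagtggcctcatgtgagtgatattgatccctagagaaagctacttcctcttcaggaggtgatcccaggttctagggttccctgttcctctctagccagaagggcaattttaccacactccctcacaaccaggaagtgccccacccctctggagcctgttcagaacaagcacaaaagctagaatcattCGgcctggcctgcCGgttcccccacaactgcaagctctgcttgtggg
Gnas, upstream start: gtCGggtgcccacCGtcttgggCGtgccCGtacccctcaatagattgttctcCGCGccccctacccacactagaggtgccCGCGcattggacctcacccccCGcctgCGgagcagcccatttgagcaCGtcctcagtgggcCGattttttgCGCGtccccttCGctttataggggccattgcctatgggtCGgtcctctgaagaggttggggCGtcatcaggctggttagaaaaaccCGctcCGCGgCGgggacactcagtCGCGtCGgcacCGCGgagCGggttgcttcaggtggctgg
Gnas, Gs-alpha start: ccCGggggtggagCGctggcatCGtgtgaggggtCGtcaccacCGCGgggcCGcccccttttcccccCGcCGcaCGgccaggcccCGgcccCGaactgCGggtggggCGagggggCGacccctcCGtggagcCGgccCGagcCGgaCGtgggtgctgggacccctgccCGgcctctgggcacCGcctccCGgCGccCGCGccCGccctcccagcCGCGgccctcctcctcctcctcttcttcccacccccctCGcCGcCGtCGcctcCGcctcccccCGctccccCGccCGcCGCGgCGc

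A gene was called expressed at 1 TPM or more in both libraries, silent below 0.1 TPM in both, and low otherwise. By this rule 14 of the 34 imprinted genes were expressed, 12 were low and 8 were silent. Over all genes listed 24.7% were expressed, 12.4% low and 63.0% silent, and over protein-coding genes 47.4%, 16.5% and 36.1%. Of the 28 protein-coding members 12 were expressed, 8 low and 8 silent. Of the 6 noncoding members 2 were expressed, 4 low and none silent, where 2.36% of all genes outside the protein-coding class were expressed, 8.17% low and 89.5% silent. Together the imprinted genes summed to 749 and 741 TPM, or 0.0769% and 0.0761% of all gene TPM. Gnas and Slc22a18 made up 88.8% and 88.5% of that sum, and the other 32 genes summed to 84.2 and 85.1 TPM. Next to the upper boundary lay Igf2, at 1.09 and 1.07 TPM just inside, and Peg3, at 0.83 and 1.42 TPM just outside. Next to the lower boundary lay Peg10, at 0.08 and 0.09 TPM just inside the silent class, and Kcnq1ot1, at 0.06 and 0.15 TPM just outside. The tissue is bulk liver, in which fewer cells of a type and less RNA per cell cannot be told apart.

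**Figure D1:**
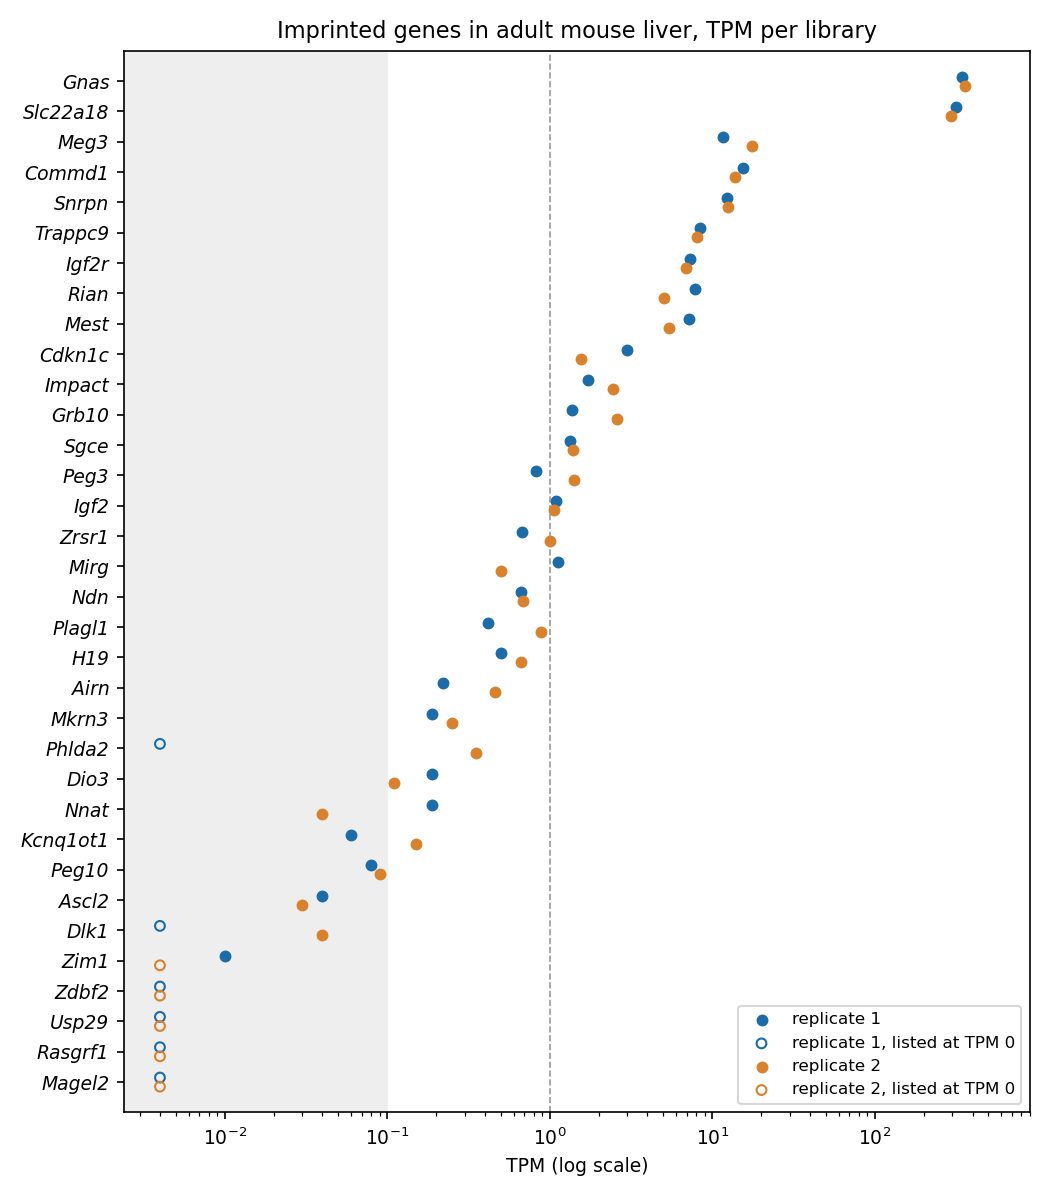
TPM of the 34 imprinted genes in replicate 1 (blue) and replicate 2 (orange) on a log axis, ordered by mean; open circles at the left edge are values listed at 0, the grey band lies below 0.1 TPM and the dashed line marks 1 TPM. Gnas and Slc22a18 stand near 300 TPM in both libraries, and Meg3, the next by mean, has 11.7 and 17.7 TPM.

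The growth factor Igf2, known as a paternally expressed driver of fetal growth, lay at the edge of the expressed class. Most of its TPM was on short models, Igf2-208 of 958 bases and Igf2-203 of 650 bases. The protein-coding Igf2-201, of 3708 bases, had 0.06 and 0.01 TPM, so the class of Igf2 rests on how few reads were assigned to models. Igf2 had 46 reads in replicate 1 and 36 in replicate 2. The exact Poisson 95% intervals were 33.7 to 61.4 and 25.2 to 49.8, which overlap. Its neighbour H19 (chr7:142575529-142578143), a maternally expressed noncoding RNA, had 22 and 36 reads, or 0.50 and 0.67 TPM. H19 was classed as low, and neither gene passed the test between libraries (exact test, adjusted p = 0.212 for Igf2 and 0.256 for H19). The receptor Igf2r, known as maternally expressed in mouse tissues and as a clearing receptor that delivers IGF2 to lysosomes, was expressed at 7.30 and 6.93 TPM, with 3097 and 2876 reads. Airn, the paternally expressed RNA that starts inside Igf2r and runs antisense to it, had 11 and 25 reads, or 0.22 and 0.46 TPM. Grb10, an adaptor that binds the insulin and IGF1 receptors and restrains growth, had 1.38 and 2.58 TPM, with 301 and 500 reads.

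The rest of the growth factor axis, a list of 14 genes that includes Igf2r, was mostly abundant, with 13 expressed and 1 low. Over protein-coding genes 47.4% were expressed, 16.5% low and 36.1% silent. Igf1, the growth factor that liver secretes after birth, had 1243 and 1052 TPM, against about 1 TPM for Igf2. The binding protein Igfbp4 had 2201 and 1575 TPM, Igfbp2 187 and 868 TPM, and the acid-labile subunit Igfals 338 and 317 TPM. Igf1r, the receptor through which both growth factors signal, was the low gene of the list at 0.25 and 0.27 TPM. Between libraries 2 of the 14 genes were higher in replicate 2 and 11 in replicate 1, where 28.4% and 28.7% of all genes tested were called in these directions. With spike-in scaling the counts were 3 and 8. Igfbp2 was 4.27-fold higher in replicate 2. Igfbp1 was 3.15-fold higher in replicate 1, at 42.6 against 14.8 TPM, Igfbp5 2.51-fold, at 4.76 against 2.09 TPM, and Igfbp6 2.09-fold, at 3.75 against 1.94 TPM.

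In the Kcnq1 domain on chromosome 7 the levels spanned the whole range. Slc22a18 (chr7:143473539-143473838 holds its start), a transporter-like protein known as maternally expressed, had 318 and 296 TPM from 20146 and 19127 reads. Cdkn1c, the maternally expressed cyclin-dependent kinase inhibitor p57, had 3.0 and 1.55 TPM from 252 and 131 reads, and replicate 1 was the higher. Phlda2, which restrains placental growth, had 0 reads in replicate 1 and 10 in replicate 2, where the limit of 3 reads in replicate 1 stands at 0.108 TPM. Ascl2, a transcription factor of the placenta, had 3 and 2 reads and was silent. Kcnq1ot1, the paternally expressed antisense RNA that silences the domain in cis, had only 0.06 and 0.15 TPM. That low TPM came from 260 and 613 reads spread over a single model of 84395 bases, or 3.08 and 7.26 reads per 1000 bases, so this RNA was detected in both libraries and its class rests on its length. Kcnq1, the channel gene on the opposite strand, had 106 and 115 reads.

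The Dlk1-Dio3 domain on chromosome 12 was divided by the type of RNA. Its maternally expressed noncoding RNAs were measured in both libraries. Meg3 (chr12:109541001-109571726) had 11.7 and 17.7 TPM from 944 and 1271 reads. Rian, the host of box C/D small nucleolar RNAs, had 7.87 and 5.07 TPM from 309 and 195 reads, and Mirg, the host of a large group of microRNAs, 1.12 and 0.50 TPM from 37 and 17 reads. Meg3 was therefore higher in replicate 2, and Rian and Mirg were higher in replicate 1. The log2 ratio of replicate 2 to replicate 1 was 0.28 for Meg3 with a 95% counting interval of 0.16 to 0.41, and -0.81 for Rian with an interval of -1.07 to -0.55. The intervals do not overlap, and another scaling would move both by the same amount; the difference between the genes was not tested. The paternally expressed protein-coding genes were near zero. Dlk1, a transmembrane ligand of fetal hepatoblasts, had 0 and 3 reads, and Dio3, the deiodinase that inactivates thyroid hormone, had 16 and 8 reads, or 0.19 and 0.11 TPM.

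Among the paternally expressed genes outside these domains, Mest, a hydrolase-like protein, had 7.23 and 5.43 TPM from 284 and 288 reads. Peg3, a zinc-finger protein of the paternally expressed class, had 0.83 and 1.42 TPM from 324 and 540 reads and was classed as low, as replicate 1 lay under 1 TPM. Its neighbours Usp29 and Zim1 were silent, with 0 reads in both libraries for Usp29, and 2 and 0 reads for Zim1. The tables measure Usp29 over 1 model that starts 230577 bases from the RefSeq start site, so transcripts ending before it would not be counted. Sgce, a sarcoglycan, had 1.33 and 1.40 TPM, whereas Peg10, the retrotransposon-derived gene next to it, had 6 and 21 reads. Impact, a regulator of the translation factor kinase GCN2, had 1.72 and 2.44 TPM from 272 and 390 reads. Plagl1, a zinc-finger transcription factor, was low at 0.42 and 0.88 TPM, and Nnat, a proteolipid of neurons, at 0.19 and 0.04 TPM, inside an intron of Blcap, which had 27.8 and 32.6 TPM on the opposite strand.

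The Snrpn domain, whose paternally expressed genes are lost in Prader-Willi syndrome, also held both classes. Snrpn, a spliceosomal protein, had 12.4 and 12.5 TPM from 1055 and 1078 reads, nearly the same in both libraries. Ndn was low at 0.67 and 0.69 TPM, Mkrn3 at 0.19 and 0.25 TPM, and Magel2 had 0 reads in both. A few reads of Snrpn are shared with Gm38393, an overlapping gene on the same strand with 18 and 51 estimated reads, while the overlapping Snurf is listed at 0 reads. Commd1, a copper-handling protein, and Trappc9, a subunit of a vesicle tethering complex, are known as imprinted mainly in brain. In liver they had 15.6 and 13.8 TPM and 8.43 and 8.03 TPM. Zrsr1, a paternally expressed splicing factor gene that lies inside Commd1 on the opposite strand, had 103 and 153 reads.

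Of the 8 silent genes 4 had no read in either library: Usp29, Magel2, Zdbf2 and Rasgrf1. The limit that 3 reads set in replicate 1 was 0.0254 TPM for Usp29, 0.0138 TPM for Magel2, 0.00745 TPM for Zdbf2 and 0.0205 TPM for Rasgrf1. Zdbf2 is a zinc-finger protein of the paternally expressed class, Rasgrf1 a Ras activator of neurons, and Magel2 a ubiquitin ligase partner active in hypothalamus. These limits cover counting error only. As a check on neural tissue, 3 of 8 neural marker genes, Snap25, Tubb3 and Elavl3, also had 0 reads in both libraries.

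Gnas had the highest mean TPM of the 34 members, at 347 and 360 TPM from 25815 and 25699 reads. It encodes the stimulatory G protein alpha subunit, which couples hormone receptors such as that for glucagon to cyclic AMP, and other promoters of the locus give imprinted transcripts. TPM was the higher in replicate 2 and the read number in replicate 1, since the mean length of the models used was 1716 bases in replicate 1 and 1631 in replicate 2. Models that start at the Gs-alpha promoter, Gnas-206, Gnas-207 and Gnas-208, held 96.2% of the gene's TPM in replicate 1 and 69.7% in replicate 2. The rest was nearly all Gnas-221, a processed transcript without an annotated protein, at 3.37% and 29.3%, or 11.7 and 106 TPM. Gnas-221 starts 2307 bases upstream of Gnas-207, inside the upstream window printed above, in a region known for a paternally expressed alternative first exon, exon 1A.

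**Figure D2:**
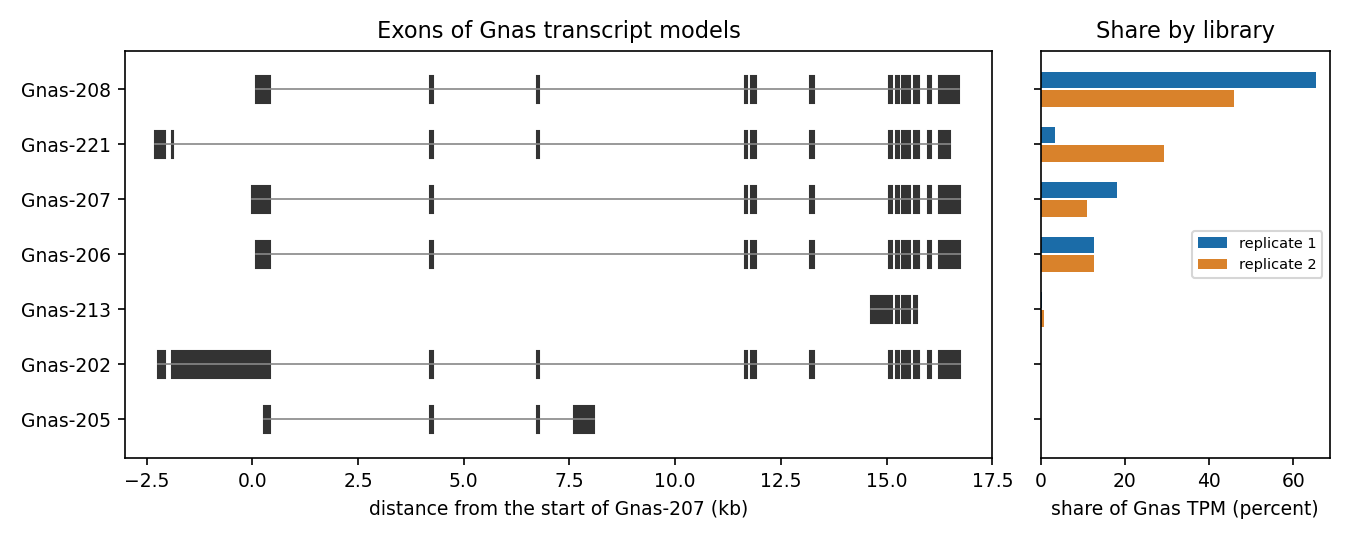
Exons of 7 Gnas transcript models (boxes) by distance in kb from the start of Gnas-207, with each model's share of Gnas TPM in replicate 1 (blue) and replicate 2 (orange). Gnas-221 begins upstream of the Gs-alpha models, shares their later exons and holds 3.37% and 29.3%, where Gnas-208 holds 65.4% and 45.9%.

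The split rests on how shared reads were assigned. Gnas-221 has 13 exons, of which 10 are identical to exons of Gnas-208, and it was given 705 and 6474 reads with deposited posterior standard deviations of 328 and 361 reads. Gnas-202 and Gnas-212, which also start upstream, had 30.8 and 67.3 reads and 1.24 and 8.60 reads. Gnas-211, which starts 45686 bases upstream of Gnas-207 near the known start of the NESP55 transcript, had 22.2 and 16.3 reads, and the antisense RNA Nespas had 0 reads in both. No test between libraries was made for transcript shares.

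The libraries were compared gene by gene with a two-sided exact binomial test on estimated reads after TMM scaling, adjusted by Benjamini-Hochberg over 14533 genes with at least 20 reads in both together. It asks whether these libraries differ beyond counting error and says nothing of conditions. Of the 34 imprinted genes 25 could be tested, and 15 were called, 7 higher in replicate 2 and 8 higher in replicate 1. Over all genes tested 57.1% were called, 28.4% and 28.7% in these directions, so the imprinted genes lay near the background. With spike-in scaling, which moved the median log2 ratio of all genes by 0.15, 9 imprinted genes were higher in replicate 2 and 6 in replicate 1, and 73.6% of all calls were higher in replicate 2 in place of 49.7%. Their median log2 ratio was -0.09 against 0.00 for all genes, and their median size of log2 ratio 0.39 against 0.26. At a ratio of at least 2-fold Kcnq1ot1 and Peg10 were higher in replicate 2 and Cdkn1c and Mirg in replicate 1, against 7.69% of all genes in either direction, 5.35% higher in replicate 2 and 2.34% in replicate 1.

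**Figure D3:**
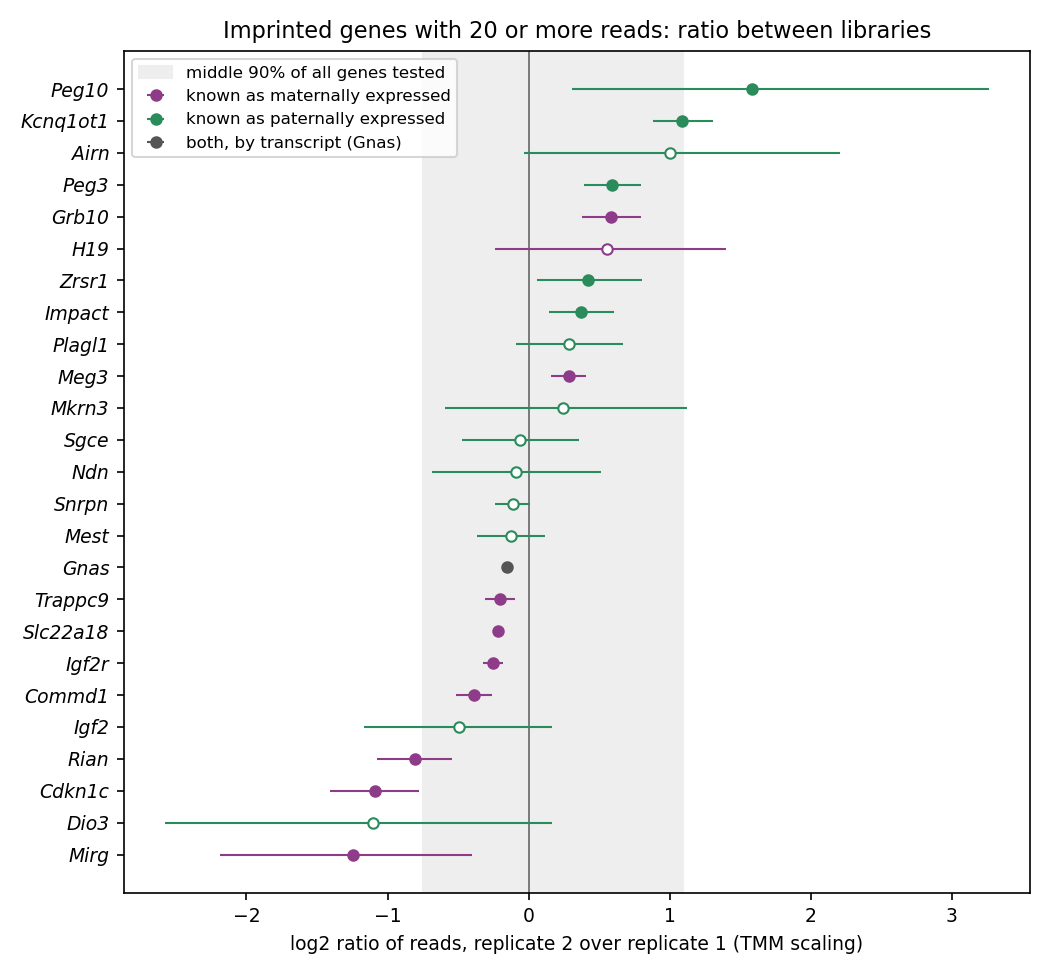
Log2 ratio of scaled reads, replicate 2 over replicate 1, for the 25 imprinted genes tested, with 95% counting intervals; filled points passed the exact test, purple marks genes known as maternally and green as paternally expressed, and grey is the middle 90% of all genes tested. Kcnq1ot1 lies at 1.09 and Cdkn1c at -1.09.

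The largest call by adjusted p after Slc22a18 and Gnas was Kcnq1ot1, at 260 and 613 reads, 2.13-fold higher in replicate 2 (exact test, adjusted p = 2.28e-25). The long nuclear RNAs Neat1 and Malat1, chosen after their values were seen, were also higher there, as were 28.4% of all genes tested. Neat1 had 13771 and 51322 reads and Malat1 14991 and 30839 reads, log2 ratios of 1.75 and 0.90. Among the noncoding members Meg3 was higher in replicate 2 too, Rian and Mirg were higher in replicate 1, and H19 and Airn did not pass. Any link of Neat1 and Malat1 to the difference of Kcnq1ot1 was not tested. Peg3 (log2 ratio 0.59, adjusted p = 1.74e-08), Grb10 (0.59, 8.00e-08), Meg3 (0.28, 1.49e-05), Impact (0.37, 0.00252) and Zrsr1 (0.42, 0.0414) were higher in replicate 2 by the exact test. Peg10 was called at 21 against 6 reads although both values lie under 0.1 TPM (log2 ratio 1.58, adjusted p = 0.0240). Cdkn1c was 2.12-fold higher in replicate 1 (exact test, adjusted p = 4.74e-12), Mirg 2.37-fold (0.00639), Rian 1.75-fold (3.13e-09) and Commd1 1.31-fold (5.33e-09). Igf2r, Slc22a18, Trappc9 and Gnas were higher in replicate 1 by small amounts, log2 ratios of -0.25, -0.22, -0.20 and -0.15. For Gnas the ratio was 0.00 under spike-in scaling, and Trappc9 lost its call under spike-in and total-read scaling.

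The genes known as paternally expressed and those known as maternally expressed gave different counts. Of 14 paternally expressed genes tested 5 were higher in replicate 2 and 0 in replicate 1, and 9 did not pass; with spike-in scaling 7 were higher in replicate 2. Over all genes tested 28.4% were higher in replicate 2 and 28.7% in replicate 1. Of 10 maternally expressed genes 2 were higher in replicate 2 and 7 in replicate 1, or 6 in replicate 1 when reads were scaled by totals or spike-ins. The 7 include Commd1 and Trappc9, known as imprinted mainly in brain. A call also depends on read number. Slc22a18 passed at a log2 ratio of -0.22 with 20146 and 19127 reads. The paternally expressed Dio3 did not pass at -1.10 with 16 and 8 reads. The difference between the parental classes was not tested. Summed TPM was 27.3 and 28.0 for the paternally and 375 and 353 for the maternally expressed genes, Slc22a18 being most of the latter.

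Marker genes of liver cell types differed between the same libraries. All 10 Kupffer cell markers were higher in replicate 2, with a summed level of 221 and 369 TPM, as were 9 of 10 sinusoidal endothelial markers, at 148 and 213 TPM, and 4 of 8 lymphocyte markers, at 14.7 and 27.2 TPM. Of 12 stellate cell and fibroblast markers 7 were higher in replicate 2 and 2 in replicate 1, at 433 and 477 TPM. Of 7 red blood cell markers 6 were tested, and 4 were higher in replicate 2 and 1 in replicate 1, at 1290 and 2110 TPM. Of 5 mesothelial markers 3 were higher in replicate 1 and none in replicate 2, at 5.32 and 3.42 TPM; Msln had 1.33 and 0.66 TPM. Of 7 pancreas markers 5 were tested and 4 were higher in replicate 1, at 27.1 and 21.1 TPM. Hepatocyte markers were higher in replicate 1 for 7 of 8 genes and in replicate 2 for 1, or 4 and 4 with spike-in scaling. The same counts were 2 and 1 of 6 cholangiocyte markers tested, 1 and 1 of 4 neural and 1 and 0 of 3 adipocyte markers. These lists held 8, 8 and 6 genes, the rest having too few reads to test. The same test called 28.4% of all genes tested higher in replicate 2 and 28.7% higher in replicate 1. With 2 libraries, any gene higher in replicate 2 goes along with the Kupffer and endothelial markers. The calls of imprinted genes can therefore not be matched to a cell type. Whether these cell types carry the imprinted transcripts was not tested.

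Within genes, the transcript table gives each model's share of its gene's TPM as a percent. Of the 14 expressed genes 13 have more than 1 model, and 11 of these had the same leading model in both libraries. Snrpn-201 held 100% in both, Igf2r-201 100% and 96.8%, Slc22a18-201 86.8% and 87.1%, and Trappc9-202 55.2% and 55.6%. Meg3 was led by Meg3-207 at 50.4% and 46.1%. Grb10-201, which starts 19 bases from the RefSeq start of a window with 45 CG, held 59.0% and 60.3%, and Grb10-203, at the start of a window with 9 CG, 32.9% and 19.4%. Cdkn1c-201 held 52.5% and 80.3% and Cdkn1c-202 47.6% and 19.7%. The first had 131 and 105 reads, and Cdkn1c-202 121 and 26.2 reads, so the library difference of the gene lay mostly in Cdkn1c-202.

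**Figure D4:**
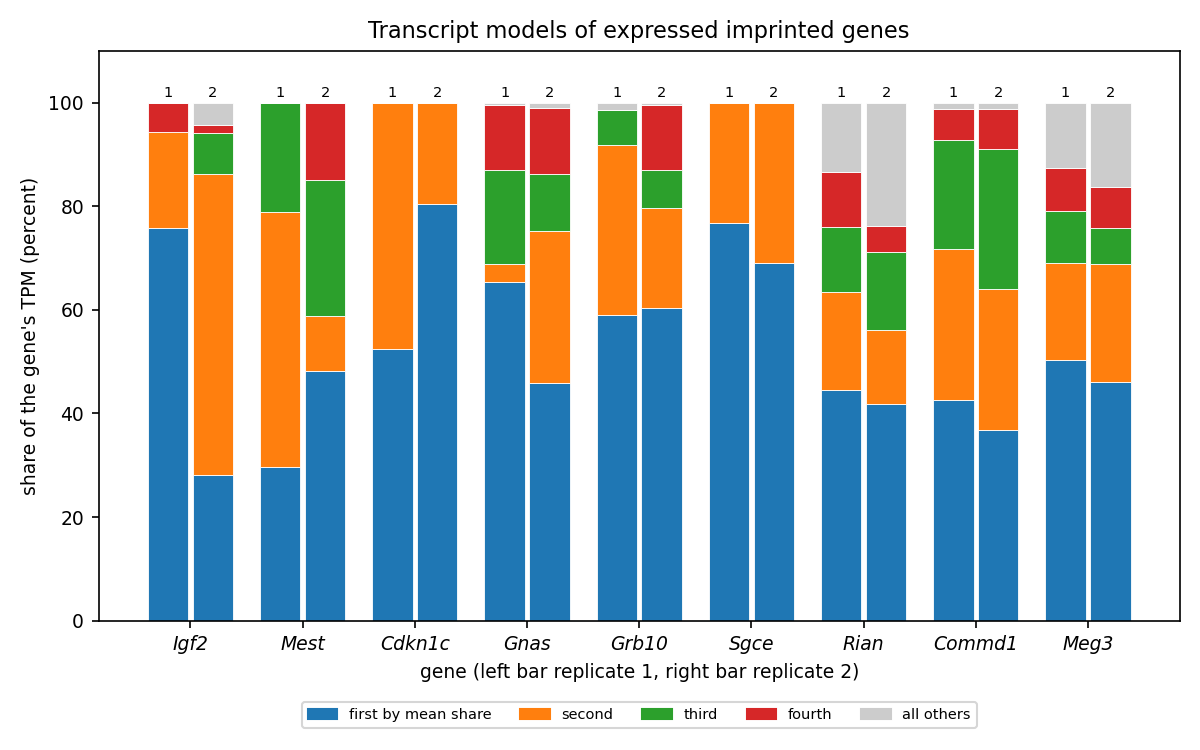
Share of gene TPM held by each transcript model (percent, stacked) for the expressed imprinted genes with a difference above 5 percentage points, replicate 1 at left and replicate 2 at right; colours rank models by mean share within a gene. Igf2 and Mest have another leading model in each library, and the bar of Gnas-208, at the base, stands at 65.4% and 45.9%.

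The leading model differed for Igf2 and Mest, both with few reads per model. For Igf2 the short processed transcript Igf2-208 held 75.9% and 28.1%, from 31.0 and 11.6 reads. The protein-coding Igf2-203 held 18.5% and 58.1%, from 4.53 and 14.5 reads. For Mest the processed transcript Mest-204 held 49.1% and 10.7%, from 39.6 and 6.78 reads, with a posterior standard deviation of 8.91 and 7.59 reads. The leading model of Mest in replicate 2 was 836 bases long and has no name in GENCODE M21. It held 29.7% and 48.1%, from 67.85 and 84.35 reads. The protein-coding Mest-211 led in neither library and was steadier, at 21.2% and 26.3% from 177 and 167 reads. The TPM of Mest therefore depends on short models, while its reads were 284 and 288.

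Promoter windows were described by their number of CG, taking the mean over a gene's windows. Silent imprinted genes had a median of 20 CG per 300-base window over 7 genes, with a range of 9 to 26.5, where the median of all 7560 silent genes with a window was 4 and that of the 5600 protein-coding ones also 4. Expressed imprinted genes had a median of 12.9 over 10 genes, where all 8252 expressed genes had 21. The 10 are part of the 14 expressed members, as Cdkn1c, Sgce, Impact and Trappc9 had no window. For low genes the medians were 13 over 11 imprinted genes and 13 over all. Among the expressed genes the windows ran from 0 CG for Rian and 2 for Slc22a18 to 34 for Igf2r, and among the silent genes Dlk1 had the fewest at 9 and Zdbf2 the most at 26.5. Some windows in these means lie far from the start of the nearest transcript model of their gene. The distance was 230577 bases for Usp29, 72907 for 1 Zdbf2 window, and 42867 and 309958 for 2 Snrpn windows. The CG numbers are counts of letters, and methylation of the windows was not measured here.

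**Figure D5:**
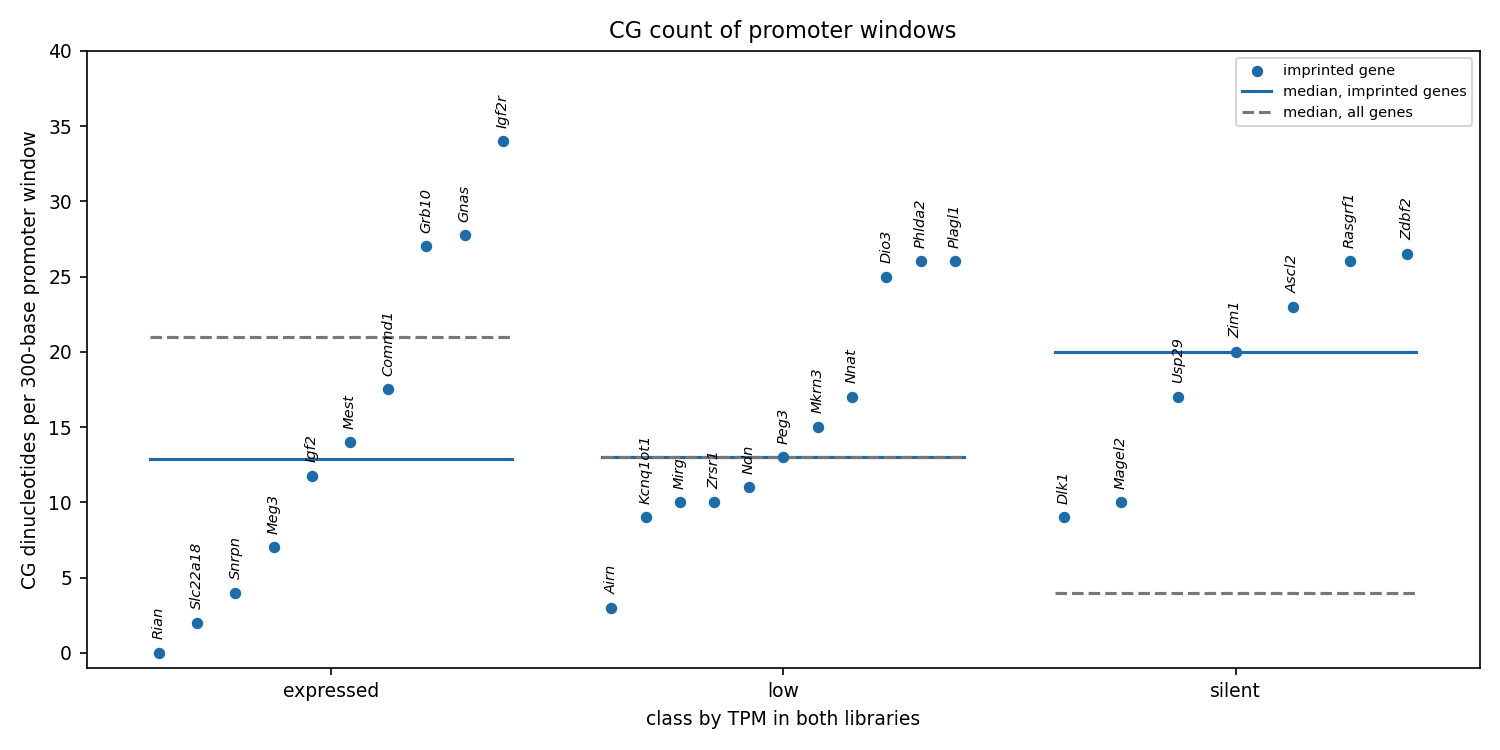
Mean number of CG dinucleotides per 300-base promoter window for 28 imprinted genes (points) by class, with the median of the imprinted genes (solid line) and of all genes of that class (dashed line). The silent imprinted genes lie between 9 and 26.5, above the median of 4 for all silent genes.

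The motif TGCCGC, the core of the site that ZFP57 binds when methylated, was searched on either strand, overlapping matches counted. It was found in 11 of the 43 windows of imprinted genes, or 25.6%, and in 11.6% of 32851 windows of the same length over all genes. The 10 genes with a match were Commd1, Grb10, Igf2, Meg3, Mest, Nnat, Plagl1, Snrpn, Zdbf2 and Zim1. Both Mest windows that hold it overlap each other. A match is a description of the letters and not a site.

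Several imprinted transcripts are hosts of microRNAs. RefSeq places 43 mature microRNAs from 23 genes inside 7 members on the same strand: 26 in Mirg, 6 in Rian, 3 in Meg3 and 2 each in H19, Igf2, Mest and Usp29. The libraries held RNA above 200 nucleotides, so mature microRNAs were outside the measurement, and the 22 microRNA genes listed in the tables had 0 reads. The hosts Meg3, Rian and Mirg had the levels given above. The 43 microRNAs of all 7 hosts carry 42 different seeds, bases 2 to 8, shown in capitals for the examples below. Only miR-453 and miR-496a-5p, both in Mirg, share a seed.
mmu-miR-453: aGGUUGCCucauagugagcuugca
mmu-miR-496a-5p: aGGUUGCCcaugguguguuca
mmu-miR-370-3p, in Rian: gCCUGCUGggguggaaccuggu
mmu-miR-770-5p, in Meg3: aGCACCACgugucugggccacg
mmu-miR-335-5p, in Mest: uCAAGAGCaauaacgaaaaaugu
mmu-miR-675-5p, in H19: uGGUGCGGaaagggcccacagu

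A further 46 imprinted genes outside the members were listed, of 48 named, and 21 were expressed, 10 low and 15 silent. Over all genes listed 24.7% were expressed, 12.4% low and 63.0% silent, and over protein-coding genes 47.4%, 16.5% and 36.1%. Most abundant of the 46 were the tetraspanin Cd81 at 516 and 537 TPM and the amino acid transporter Slc38a4 at 500 and 515 TPM. The signal peptide peptidase H13 followed at 98.3 and 128 TPM, and the proteoglycan decorin, Dcn, at 63.9 and 76.3 TPM. Whether the genes of this list are imprinted in adult liver was not measured. Of 32 tested 10 were higher in replicate 2 and 8 in replicate 1, against 28.4% and 28.7% of all genes. With spike-in scaling these counts were 16 and 5. At 2-fold or more Gatm, the first enzyme of creatine synthesis, was higher in replicate 2 at 2.65 and 8.54 TPM, as were Asb4 at 0.04 and 0.26 TPM, Ppp1r9a at 0.19 and 0.65 TPM, Atp10a at 0.08 and 0.20 TPM and Ampd3 at 0.30 and 0.45 TPM.

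Genes that keep imprints were expressed in 12 of 19 cases, with 4 low and 3 silent. Over protein-coding genes 47.4% were expressed, 16.5% low and 36.1% silent. Trim28, the corepressor that ZFP57 recruits, had 80.9 and 96.0 TPM, Eed, a Polycomb subunit, 7.79 and 9.38 TPM, Setdb1, a histone H3 lysine methyltransferase, 5.25 and 7.36 TPM, and the insulator protein Ctcf 5.51 and 5.67 TPM. Zfp57 itself was low at 0.22 and 0.51 TPM. Of 16 tested 9 were higher in replicate 2. Zfp57 was among these at 2.03-fold, from 14 and 32 reads and close to the cutoff (exact test, adjusted p = 0.0495). Only 1 gene, Ctcfl, was higher in replicate 1, at 2.26-fold, from 25 and 12 reads. With spike-in scaling the counts were 12 and 0, and with DESeq2 size factors 8 and 1. Over all 14533 genes tested 28.4% and 28.7% were called in these directions, and with spike-in scaling 6348 and 2274 genes. The 11 genes linked to the shutdown of fetal genes in liver after birth were 3 expressed, 4 low and 4 silent. The shares over protein-coding genes were again 47.4%, 16.5% and 36.1%. Zfp36l1, an mRNA decay factor, had 136 and 108 TPM, and the repressors Zbtb20 and Zhx2 had 13.6 and 15.3 TPM and 5.60 and 4.71 TPM. Of 7 tested 3 were higher in each library. The fetal genes Gpc3 and Afp stood at 1.36 and 0.73 TPM and at 0.09 and 0.20 TPM. The RNA-binding proteins Igf2bp2 and Igf2bp3 were higher in replicate 2 at 0.19 and 0.69 TPM and at 0.02 and 0.17 TPM.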

How the data were processed

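Poly-A RNA-seq of 2 libraries of adult mouse liver was analysed from deposited gene and transcript tables, quantified on mm10 with GENCODE M4 per the file headers and notes. No source used here names the quantification tool or aligner. The deposited estimated counts need not be whole, because reads matching several genes are shared. The deposited TPM values are scaled for length and for library total, spike-ins included, and have 2 decimals. The deposited FPKM values and posterior means served as alternatives. The deposited percent per transcript is its part of the TPM of the gene. The posterior standard deviation is a score deposited by the authors, given in reads. Deposited junction and contig files on mm9 were not used here.

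Names and coordinates came from GENCODE M21 on GRCm38, the assembly of mm10, and 42462 of 43346 gene identifiers matched. Promoters and microRNAs came from RefSeq on GRCm38.p6. After rounding, counts were scaled with the TMM factors of edgeR 4.0.16 under R 4.3.3. Genes with 20 or more reads over both libraries were tested with an exact conditional binomial test, two-sided and adjusted by Benjamini-Hochberg at 0.05; log2 ratios used a prior count of 0.5. This test was also run on simulated counts at the libraries' depths with 200 genes changed. Reads carry no molecular identifiers and are not independent molecules, so intervals hold counting error alone. Alternatives covered scaling (total reads, spike-ins, DESeq2 1.42.0 size factors), count minimum, class thresholds, unit, estimate and leaving out a library. The members, lists and markers were chosen with earlier results of these data known. The text accounts for all members. Of the other lists, cell type markers aside, it names the most abundant genes, those at 2-fold or more and some that overlap a member. A few more were chosen after their values were seen.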

Additional observations from a re-analysis of the deposited data

How the results depend on the processing

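No paired analysis was possible because the series holds 1 group. Of the values recomputed for the counts of genes, the summed level and the leading models, 42 stayed within the limits set, 1.5 times for a count and 1 SD of the libraries for the summed level, and 5 did not. Requiring 2 TPM for expression left 9 expressed genes in place of 14, with 17 low, and requiring 0.5 TPM left 7 low genes in place of 12, with 19 expressed. At 2-fold or more the called genes were 2 and 2 in place of 7 and 8. With spike-ins in the total, the summed level was 0.0745% in place of 0.0765%. Judged on 1 library alone, without replicate 1 or without replicate 2, 15 to 16 genes were expressed, 9 low and 9 to 10 silent, and the summed level was 0.0761% to 0.0769%. For all genes tested the share of calls that were higher in replicate 2 was 49.7% with TMM, 69.4% with total reads and 73.6% with spike-in reads, and the median log2 ratio 0.00, 0.13 and 0.15. For the imprinted genes these calls were 7 and 8, 7 and 7, and 9 and 6. Gnas turned to 0.000457 with spike-in reads (exact test, adjusted p = 1), and Trappc9 was -0.08 and -0.05 with total and spike-in reads (exact test, adjusted p = 0.211 and 0.451). With posterior mean percent Grb10-201 held 43.9% in place of 59.6%, and Sgce-205 44.3% in place of 72.9%; the cause was not tested. Depth limits the genes with few reads, such as Igf2 with 46 and 36, Dio3 with 16 and 8 and Phlda2 with 0 and 10. With 2 libraries of 1 group no spread between animals could be estimated.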
